A study of Mus musculus with 5 samples.

Results

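The genes described here are 8 cathepsins and 2 cystatins, Ctsa, Ctsb, Ctsc, Ctsd, Ctsh, Ctsl, Ctss, Ctsz, Cst3 and Cstb. They were taken by symbol as 10 of the 40879 gene symbols that each of the 5 count files lists. Messenger RNA was measured by QuantSeq, a method that reads the 3′ end of polyadenylated transcripts, in BV-2 cells, an immortalised mouse microglial line grown in serum. The study asked how trazodone (TZ), an antidepressant, changes the response of these cells to urban particulate matter (UPM). The UPM library came from cells exposed to UPM at 50 µg/mL for 23 h. The TZ 1.25, TZ 2.5 and TZ 5 libraries came from cells given TZ at 1.25, 2.5 or 5 µg/mL 1 h ahead of the same UPM exposure. The Control library came from cells labelled as a normal control, with any use of a vehicle not given in the sources used here. Each group is 1 library of 1 cell line, so a difference between groups is a difference between 2 libraries with no replicate check.

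Cathepsins are proteases that work mainly in lysosomes and endosomes, where they break down taken-up proteins and, in antigen-presenting cells, trim the invariant chain and antigens. They are made as inactive precursors, carried to the lysosome largely by mannose 6-phosphate receptors, and cut to the active form in the acid compartment. Most are cysteine proteases, which cystatins block by filling the active site; Ctsd is an aspartic protease and Ctsa a serine carboxypeptidase, and cystatins do not inhibit either class. Microglia are the phagocytes of the brain and are known for high cathepsin content.

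Library totals ran from 6829720 to 7696168 counts, and between 15604 and 16148 symbols had a count. Levels are counts scaled to a library of 1000000 (CPM), with 95% exact Poisson intervals. A 3′-end method yields about 1 tag per transcript, so CPM were compared between genes without division by transcript length. Reads carried no molecular identifiers, and every interval covers only counting error. Where a gene had no count, a level of up to 0.390 to 0.439 CPM (3 counts, by library) was not detectable. Of 12 microglia and macrophage markers, 10 had a mean of at least 10 CPM, and their summed level was 3684 to 4075 CPM. P2ry12, at 0.659 to 1.60 CPM, and Tmem119, at 3.03 to 7.41 CPM, were the low ones. Summed markers stayed at or under 1.79 CPM for astrocytes, neurons and lymphocytes, and Aqp4, Slc17a7, Cd3e and Ncr1 were at 0 in every library. The sums reached 25.2 CPM for oligodendrocytes (mostly Cnp, with Mog and Mobp at 0), 16.8 CPM for endothelial cells (mostly Kdr) and 6.15 CPM for fibroblasts (Lum at 0). In a pooled culture, fewer cells that make a transcript and less of that transcript per cell cannot be told apart.

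All 10 genes were detected in every library, from Ctsd at a mean of 3071 CPM to Ctsh at a mean of 30.4 CPM. Ctsd supplied 31.5% of the counts of these genes over the 5 libraries, Ctss 16.4%, Ctsb 15.6%, Cstb 10.1%, Ctsl 8.29%, Ctsz 6.29%, Ctsa 5.28%, Cst3 5.07%, Ctsc 1.15% and Ctsh 0.313%. In Control the order from high to low was Ctsd, Ctss, Ctsb, Cstb, Ctsl, Ctsz, Ctsa, Cst3, Ctsc and Ctsh. Ctsa and Cst3 could not be ordered there, or in TZ 2.5, because their counting intervals overlapped. The same held for Ctsz and Ctsa in TZ 1.25 and for Ctss and Ctsb in TZ 5, whereas in UPM no neighbouring pair overlapped. Ctsd held rank 13 to 15 among all symbols and Ctsh rank 5026 to 6099.

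**Figure D1:**
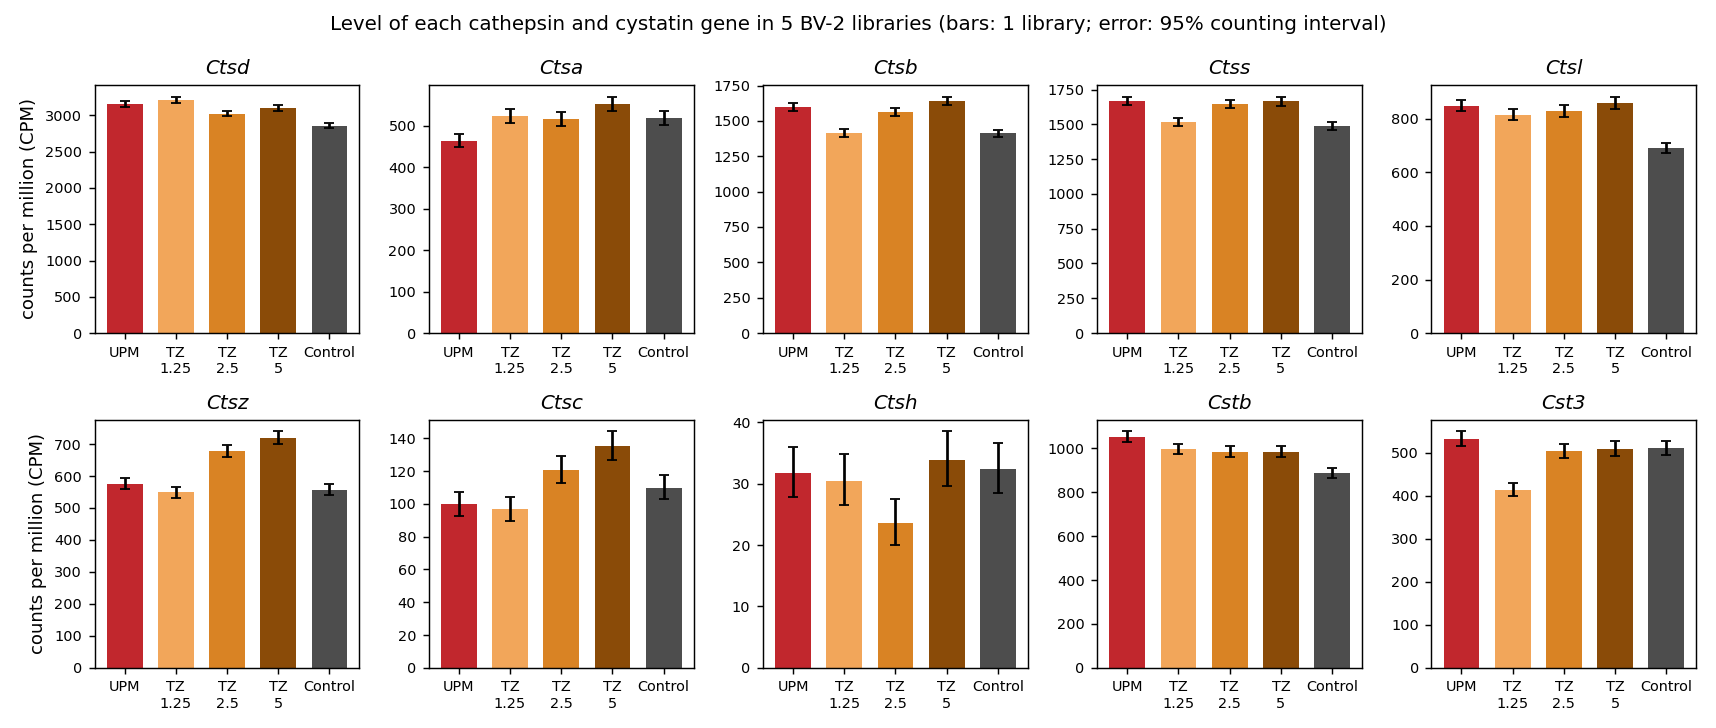
CPM of each cathepsin and cystatin gene (y axis, each panel with its own scale from 0) in the UPM, TZ 1.25, TZ 2.5, TZ 5 and Control libraries; a bar is 1 library and the error bar its 95% counting interval. Ctsz and Ctsc stood highest in TZ 5 at 719.0 and 135.2 CPM, Ctsl lowest in Control at 689.8 CPM, and Cst3 lowest in TZ 1.25 at 413.6 CPM.

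Promoter sequence was available for Ctsa, Ctsc, Ctsd, Ctsl, Ctss, Ctsz and Cst3 (7 of 10 genes, 8 start sites, RefSeq on GRCm38.p6), and the 250 bases upstream of each start were searched on both strands. The E-box CACGTG, the core of the element that TFEB and related lysosomal transcription factors bind, was in 3 of the 8 windows, against 6.02% of 32851 promoter windows of the same length. Its occurrences are shown because they lie in the lysosomal genes whose levels are described next, each on the strand of the gene with the motif in capitals. They begin 12 bases before 1 of the 2 Ctsa starts (the window of the other holds none), 245 and 98 bases before the Ctsd start, and 236 bases before the Ctsl start. The stretches shown, with up to 10 bases on each side of the motif, were compared with annotated exons. Those of Ctsa and Ctsl and that of Ctsd at 98 bases overlap an exon of the same gene. Overlap of the motif alone was not tested.
Ctsa, chr2:164833751-164833772, plus strand: agcaaactgtCACGTGatgcag
Ctsd, chr7:142388057-142388077, minus strand: tccccCACGTGacctgtatcc
Ctsd, chr7:142387910-142387935, minus strand: gcccgcgtctCACGTGacccgttgag
Ctsl, chr13:64370741-64370766, minus strand: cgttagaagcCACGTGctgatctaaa
A match describes these letters only and is neither a mapped binding site nor a cause of any level.

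Ctsd and Ctsa are the enzymes of the set that are not cysteine proteases. Ctsd, the aspartic endopeptidase of the lysosome, had 3155 CPM in UPM, 3216 CPM in TZ 1.25, 3027 CPM in TZ 2.5, 3097 CPM in TZ 5 and 2861 CPM in Control. Control was the lowest library and its interval (2823 to 2899 CPM) lay below those of the 4 UPM-exposed libraries. Ctsd was 1.10-fold higher in UPM than in Control (1.08 to 1.12) and 0.940-fold in TZ 2.5 relative to UPM (0.923 to 0.958). Ctsa, a carboxypeptidase that also shields β-galactosidase and neuraminidase in a complex, had 464.0 CPM in UPM, 523.6 CPM in TZ 1.25, 516.7 CPM in TZ 2.5, 552.7 CPM in TZ 5 and 519.4 CPM in Control. UPM was the low library, with an interval of 448.9 to 479.5 CPM below every other. Ctsa was 0.890-fold in UPM relative to Control (0.851 to 0.932) and 1.18-fold in TZ 5 relative to UPM (1.13 to 1.23).

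Ctsb, Ctss and Ctsl are endopeptidases of the papain family. Ctsb, an abundant endopeptidase that also removes C-terminal dipeptides, had 1595 CPM in UPM, 1412 CPM in TZ 1.25, 1562 CPM in TZ 2.5, 1641 CPM in TZ 5 and 1412 CPM in Control. TZ 1.25 and Control were equally low, and UPM, TZ 2.5 and TZ 5 were all higher, without overlap of the intervals. Ctss, which cleaves the invariant chain of MHC class II and keeps activity at neutral pH, had 1669 CPM in UPM, 1513 CPM in TZ 1.25, 1645 CPM in TZ 2.5, 1665 CPM in TZ 5 and 1490 CPM in Control. It had the same low pair of libraries as Ctsb. Ctsl, a strong general endopeptidase, had 848.6 CPM in UPM, 815.5 CPM in TZ 1.25, 830.2 CPM in TZ 2.5, 860.7 CPM in TZ 5 and 689.8 CPM in Control. All 4 UPM-exposed libraries were above Control, and the UPM level was 1.23-fold that of Control (1.18 to 1.27).

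The Ctss upstream window is shown because it was the only one of the 8 with the core of the interferon-stimulated response element (GAAA, any 2 bases, GAAA), which 2.98% of all promoter windows hold; the match, in capitals, begins 21 bases before the start.
Ctss, chr3:95526536-95526785, plus strand: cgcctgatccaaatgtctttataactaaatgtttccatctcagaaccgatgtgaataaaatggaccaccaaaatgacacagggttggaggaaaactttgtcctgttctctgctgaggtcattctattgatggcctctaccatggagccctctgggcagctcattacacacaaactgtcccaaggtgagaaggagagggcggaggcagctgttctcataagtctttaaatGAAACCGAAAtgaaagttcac

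Ctsz, Ctsc and Ctsh cut mainly from the ends of proteins. Ctsz, a carboxypeptidase, had 576.5 CPM in UPM, 549.4 CPM in TZ 1.25, 677.8 CPM in TZ 2.5, 719.0 CPM in TZ 5 and 556.7 CPM in Control. TZ 2.5 and TZ 5 were above the other 3 libraries without overlap of the intervals, and Ctsz was 1.23-fold in TZ 5 relative to UPM (1.18 to 1.28) and 1.27-fold relative to Control (1.22 to 1.33). Ctsc, a dipeptidyl peptidase that activates the serine proteases of immune granules, had 99.79 CPM in UPM, 96.68 CPM in TZ 1.25, 120.9 CPM in TZ 2.5, 135.2 CPM in TZ 5 and 110.0 CPM in Control. TZ 5 was the high library, and Ctsc was 1.34-fold in TZ 5 relative to UPM (1.22 to 1.48) and 1.21-fold relative to Control (1.10 to 1.33). UPM and TZ 1.25 were the low pair for Ctsc, with intervals that overlapped Control, and TZ 2.5 overlapped both TZ 5 and Control. Ctsh, an aminopeptidase, had 31.70 CPM in UPM, 30.48 CPM in TZ 1.25, 23.57 CPM in TZ 2.5, 33.84 CPM in TZ 5 and 32.31 CPM in Control. TZ 2.5 alone was low, at 161 counts against 221 to 245 counts in the other libraries, its interval overlapped only that of TZ 1.25, and its level was 0.729-fold that of UPM (0.594 to 0.893).

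The upstream windows of Ctsz and Ctsc are shown because these are the genes with a dose trend. Neither holds CACGTG or the interferon-response core. Both hold the GC box GGGCGG on either strand, which 32.7% of all promoter windows hold. Ctsz also holds TGACNNNGC, the core of the antioxidant response element, which 10.2% of them hold. Neither motif is particular to these genes. The GC box was in 5 of the 8 windows searched, also those of Cst3, Ctss and Ctsd, and TGACNNNGC was also in that of Ctsd. Cst3, Ctss and Ctsd had no dose call.
Ctsz, chr2:174439040-174439289, minus strand: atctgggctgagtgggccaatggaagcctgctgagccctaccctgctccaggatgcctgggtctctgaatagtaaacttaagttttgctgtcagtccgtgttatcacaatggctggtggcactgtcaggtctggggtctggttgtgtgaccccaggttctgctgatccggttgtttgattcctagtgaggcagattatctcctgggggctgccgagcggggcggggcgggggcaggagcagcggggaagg
Ctsc, chr7:88277835-88278084, plus strand: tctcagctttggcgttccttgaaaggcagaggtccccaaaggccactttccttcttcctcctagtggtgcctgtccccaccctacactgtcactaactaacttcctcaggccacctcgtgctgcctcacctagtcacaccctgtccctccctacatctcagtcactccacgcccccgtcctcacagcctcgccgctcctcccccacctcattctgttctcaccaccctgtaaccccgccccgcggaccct

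The inhibitors differed from each other. Cstb, the cytosolic stefin B, had 1054 CPM in UPM, 997.5 CPM in TZ 1.25, 985.3 CPM in TZ 2.5, 985.1 CPM in TZ 5 and 887.5 CPM in Control. UPM was highest and Control lowest, and the 3 TZ libraries lay between them with overlapping intervals. The UPM level was 1.18-fold that of Control (1.15 to 1.22). Cst3, the secreted cystatin C, had 532.3 CPM in UPM, 413.6 CPM in TZ 1.25, 503.2 CPM in TZ 2.5, 509.2 CPM in TZ 5 and 509.6 CPM in Control. TZ 1.25 stood apart as low, at 0.776-fold of UPM (0.740 to 0.814), and the other 4 libraries overlapped at least in part.

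The levels of these genes were close across libraries. The highest library exceeded the lowest by 1.12-fold for Ctsd and Ctss, 1.15-fold for Ctsb, 1.18-fold for Ctsa and Cstb, 1.23-fold for Ctsl, 1.29-fold for Cst3, 1.295-fold for Ctsz, 1.38-fold for Ctsc and 1.45-fold for Ctsh. The median was 1.21-fold over the 10 genes, beside 1.21-fold over 2028 genes with a mean of at least 100 CPM and 1.29-fold over 8341 genes with a mean of at least 10 CPM. None of the 10 (0 of 10) moved in a single direction from UPM through TZ 1.25 and TZ 2.5 to TZ 5, while 20.1% of the 8341 genes did. The folds between libraries given next share libraries (UPM is in 4 of the comparisons and Control in 4), so they are set side by side and not treated as independent.

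Between UPM and Control, no cathepsin or cystatin reached a 1.5-fold difference with a counting interval excluding 1 (0 of 10), the size at which 3.08% of 8282 genes with a mean of at least 10 CPM were called. At 1.2-fold, Ctsl was called higher in UPM (1 of 10, with 9.43% of all genes called higher and 10.2% lower). At any size, the interval excluded 1 for 7 genes, 5 higher in UPM (Ctsd, Ctsb, Ctss, Ctsl and Cstb) and 2 lower (Ctsa and Ctsc), beside 34.0% of all genes and 51.2% of the 2039 genes with a mean of at least 100 CPM. The median log2 fold was 0.10 for the 10 genes and 0.00 for all genes tested.

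For TZ relative to UPM, none of the 10 genes reached 1.5-fold at any dose (0 of 10 each), a size called for 2.22% of genes in TZ 1.25, 4.4% in TZ 2.5 and 6.57% in TZ 5. At 1.2-fold, 1 gene was called lower in TZ 1.25 (Cst3, with 8.4% of all genes called lower and 8.0% higher), 1 lower in TZ 2.5 (Ctsh, with 13.0% lower and 13.8% higher) and 2 higher in TZ 5 (Ctsc and Ctsz, with 16.6% higher and 15.0% lower). At any size, the interval excluded 1 in TZ 1.25 for 8 genes, 2 higher (Ctsa and Ctsd) and 6 lower (Ctsb, Ctsl, Ctss, Ctsz, Cst3 and Cstb), beside 29.8% of all genes and 42.6% of those with a mean of at least 100 CPM. In TZ 2.5 it did so for all 10, 3 higher (Ctsa, Ctsc and Ctsz) and 7 lower, beside 41.0% of all genes and 63.1% of the abundant ones. In TZ 5 it did so for 6, 3 higher (Ctsa, Ctsc and Ctsz) and 3 lower (Ctsd, Cst3 and Cstb), beside 45.0% and 67.4%. Ctsa was thus above UPM at each dose, and Cst3 and Cstb below it. Relative to Control, the 1.5-fold count was again 0 of 10 at each dose, with 2.38%, 3.62% and 6.06% of all genes called in TZ 1.25, TZ 2.5 and TZ 5. At 1.2-fold, Cst3 was called lower in TZ 1.25 (7.52% of all genes lower and 7.33% higher), Ctsh lower in TZ 2.5 (11.1% lower and 11.3% higher), and Ctsc, Ctsl and Ctsz higher in TZ 5 (15.3% higher and 14.7% lower). The interval against Control excluded 1 in TZ 1.25 for 5 genes, 3 higher (Ctsd, Ctsl and Cstb) and 2 lower (Ctsc and Cst3), with 28.1% of all genes. In TZ 2.5 it did so for 7 genes, 6 higher (Ctsb, Ctsd, Ctsl, Ctss, Ctsz and Cstb) and 1 lower (Ctsh), with 36.8% of all genes. In TZ 5 it did so for 8 genes, all higher and all but Ctsh and Cst3, with 44.3% of all genes. For TZ relative to Control, the share among genes with a mean of at least 100 CPM was not taken. In each comparison with UPM that share was above the share of all genes, so these counts lack a background of like abundance. Ctsd, Ctsl and Cstb were thus above Control in the UPM library and at each dose. The median log2 fold of the 10 genes against UPM was −0.06 in TZ 1.25, −0.06 in TZ 2.5 and 0.01 in TZ 5.

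**Figure D2:**
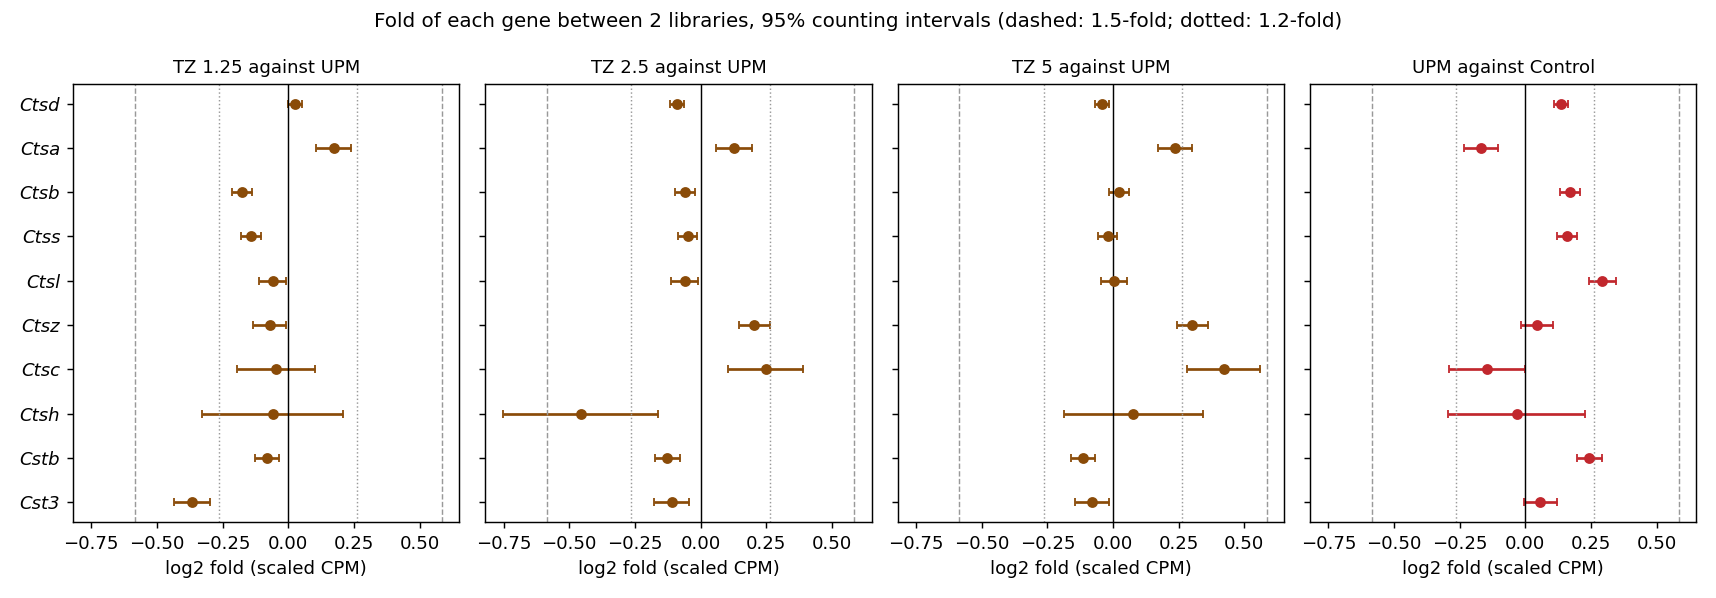
log2 fold of each gene between 2 libraries (x axis, scaled CPM) with 95% counting intervals; dashed lines mark 1.5-fold and dotted lines 1.2-fold. Every estimate lies within 1.5-fold, and in TZ 5 against UPM Ctsc and Ctsz lie beyond 1.2-fold.

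TZ dose was tested as a number in a fit to all 5 libraries with edgeR's quasi-likelihood test. Ctsc and Ctsz rose with dose, and no cathepsin or cystatin fell. They were 2 of the 10 genes, with 5.44% of 12381 genes called in either direction (365, or 2.95%, higher and 309, or 2.5%, lower). Over 0 to 5 µg/mL the fitted log2 change was 0.48 for Ctsc (SE 0.13, edgeR Benjamini-Hochberg adjusted p = 0.0184) and 0.36 for Ctsz (SE 0.11, edgeR adjusted p = 0.0374). The fit has 2 residual degrees of freedom beside 48.7 borrowed across genes, so these p-values rest mostly on shared spread. The next was Ctsa at 0.20 (SE 0.11, edgeR adjusted p = 0.35), and the other 7 genes lay between −0.10 (Cstb) and 0.08 (Ctsb). Both calls depended on single libraries: the edgeR adjusted p was 0.412 for Ctsc and 0.358 for Ctsz without TZ 5, 0.057 and 0.129 without UPM, and 0.0594 and 0.154 without TZ 1.25. Without TZ 2.5 it was 0.0357 and 0.0469. DESeq2's Wald test gave an adjusted p of 0.0828 for Ctsc and 0.0424 for Ctsz. That adjustment covered only the 3613 genes left by its own filter, so it is not like for like with edgeR.

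Other measures of the same libraries, moving with these genes or not, were as follows. Nelfcd, which lies on the opposite strand and overlaps an exon of Ctsz, had 238 counts in UPM, 348 in TZ 1.25, 410 in TZ 2.5, 368 in TZ 5 and 364 in Control, against 4437, 3984, 4629, 4929 and 4221 counts of Ctsz in the same libraries. Nelfcd itself rose with dose in the same fit (fitted log2 change 0.65, SE 0.20, edgeR adjusted p = 0.0378). Whether the counting used strand was not stated by the labels, and a part of Nelfcd reads in the Ctsz values was not tested. Genes opposite Ctsa (Neurl2 at 192 to 278 counts, Pltp at 104 to 145 counts) and opposite Ctsb (Fdft1 at 63 to 104 counts) were small beside their neighbours. On the same strand, exons of Gm49369 overlap Ctsd and those of the pseudogene Gm49230 overlap Ctsl, and Gm47123 lies opposite Ctsl. None of these symbols was in the count files, and an effect on the Ctsd or Ctsl counts was not tested. Of the 12 microglia markers, 1 had a dose call, beside 5.44% of all genes. It was Aif1, with 236.1 CPM in UPM, 236.9 CPM in TZ 1.25, 292.8 CPM in TZ 2.5, 321.2 CPM in TZ 5 and 242.8 CPM in Control (fitted log2 change 0.47, SE 0.11, edgeR adjusted p = 0.00666). The mitochondrial rRNA genes mt-Rnr1 and mt-Rnr2 took 8.80% of counts in UPM, 8.64% in TZ 1.25, 7.001% in TZ 2.5, 7.06% in TZ 5 and 7.94% in Control. Spi1, the most abundant of the microglia markers, had 662.3 CPM in UPM, 778.2 CPM in TZ 1.25, 814.2 CPM in TZ 2.5, 626.9 CPM in TZ 5 and 1008 CPM in Control, and was called at 0.655-fold in UPM (0.632 to 0.679) and 0.613-fold in TZ 5 (0.590 to 0.636) relative to Control. Cx3cr1, with 70 to 134 counts per library, was called at 0.612-fold in TZ 5 relative to UPM (0.450 to 0.825), against the direction of Aif1, with a fitted dose log2 change of −0.77 (SE 0.29, edgeR adjusted p = 0.112). Cd68, a lysosomal membrane protein of phagocytes, had 705.8 CPM in UPM, 674.9 CPM in TZ 1.25, 783.8 CPM in TZ 2.5, 847.7 CPM in TZ 5 and 658.1 CPM in Control. It had no call at 1.5-fold or in the fit (dose log2 change 0.29, SE 0.11, edgeR adjusted p = 0.0989). In TZ 5 it was 1.27-fold relative to Control (1.22 to 1.32), past the 1.2-fold rule, which called 15.3% of all genes higher. The part of these in the Ctsc and Ctsz trends was not tested.

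The UPM term of the same fit called none of the 10 genes (0 of 10), and 0.113% of all genes (10 higher and 4 lower). At an unadjusted p under 0.05 it held 2 (7.79% of all genes), Ctsl (log2 0.26, SE 0.10, edgeR adjusted p = 0.507) and Cstb (log2 0.21, SE 0.10, edgeR adjusted p = 0.616), and DESeq2's Wald test called 0 of 10 as well. The lone Control is fitted exactly by this term and is assumed to vary like the UPM-exposed libraries.

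**Figure D3:**
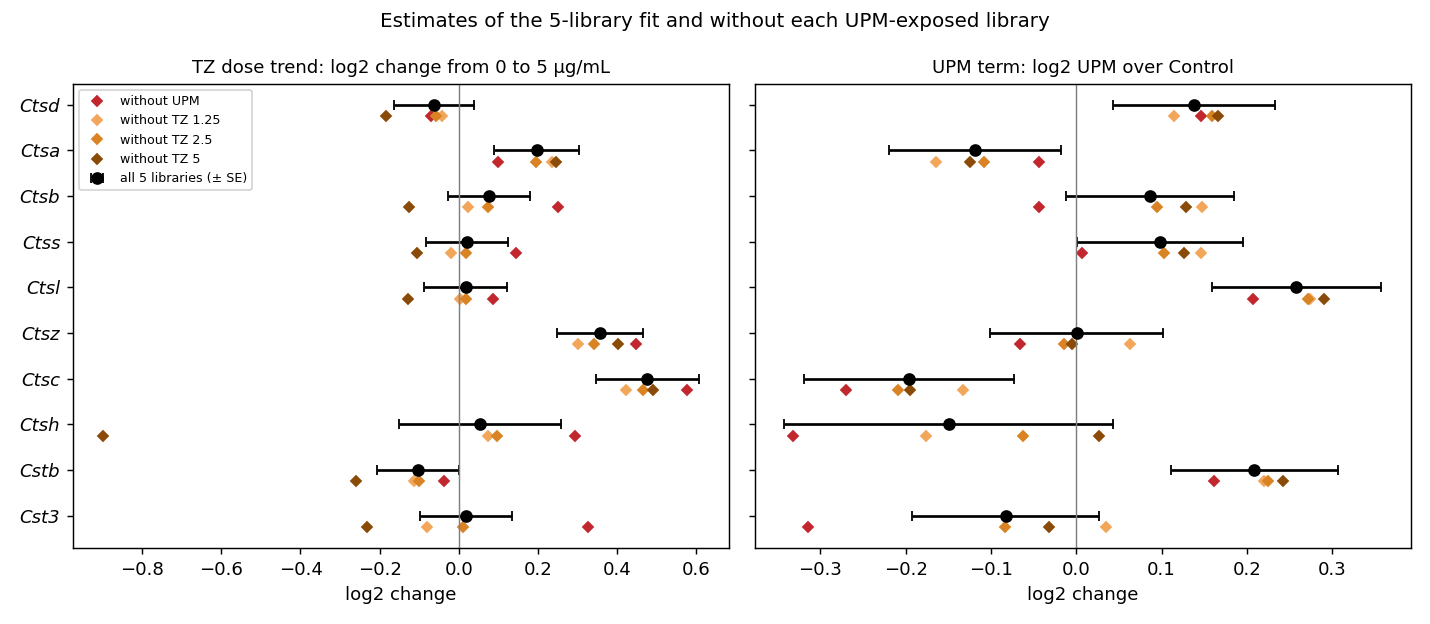
Fitted log2 change of each gene over 0 to 5 µg/mL TZ (left) and for UPM over Control (right); circles with bars are the estimate ± SE from 5 libraries and diamonds the estimates with 1 UPM-exposed library left out. The Ctsc and Ctsz dose estimates stay above 0 in every case, from 0.42 to 0.58 and from 0.30 to 0.45, whereas Ctsh ranges from −0.90 to 0.29.

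Summed transcripts of the 8 cathepsins of the set were lowest in Control, and those of its 2 cystatins were low in Control and TZ 1.25. The 8 cathepsins took 0.844% of all counts in UPM, 0.816% in TZ 1.25, 0.840% in TZ 2.5, 0.870% in TZ 5 and 0.767% in Control. The 2 cystatins took 0.159% in UPM, 0.141% in TZ 1.25, 0.149% in TZ 2.5, 0.149% in TZ 5 and 0.140% in Control. The ratio of cathepsin to cystatin counts was 5.32 in UPM (5.22 to 5.43), 5.78 in TZ 1.25 (5.66 to 5.90), 5.65 in TZ 2.5 (5.53 to 5.77), 5.83 in TZ 5 (5.70 to 5.95) and 5.49 in Control (5.38 to 5.61). UPM lay below the 3 TZ libraries and overlapped Control. For the 6 cysteine cathepsins alone, the ratio was 3.04 in UPM (2.98 to 3.10), 3.13 in TZ 1.25 (3.06 to 3.20), 3.27 in TZ 2.5 (3.19 to 3.34), 3.38 in TZ 5 (3.31 to 3.46) and 3.07 in Control (3.004 to 3.14). On that measure UPM overlapped TZ 1.25 as well as Control and lay below TZ 2.5 and TZ 5, whose intervals overlapped each other. Ctsk, a cysteine cathepsin outside the set, was left out of these shares and ratios. It alone took 0.6675% of all counts in UPM, 0.6299% in TZ 1.25, 0.6128% in TZ 2.5, 0.6219% in TZ 5 and 0.6075% in Control. Ratios with Ctsk included were not taken, so those given describe the set and not all cathepsin transcripts. The inhibitors' own ratio, Cstb to Cst3, was 1.98 in UPM, 2.41 in TZ 1.25, 1.96 in TZ 2.5, 1.94 in TZ 5 and 1.74 in Control, and TZ 1.25 was the high library. Relative to Ctsb, Ctsz was 0.361 in UPM, 0.389 in TZ 1.25, 0.434 in TZ 2.5, 0.438 in TZ 5 and 0.394 in Control, with UPM the lowest. Relative to Ctsl, Ctsz was 0.679 in UPM, 0.674 in TZ 1.25, 0.816 in TZ 2.5, 0.835 in TZ 5 and 0.807 in Control. There UPM and TZ 1.25 overlapped as the low pair, so the order of libraries depended on the gene in the denominator.

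**Figure D4:**
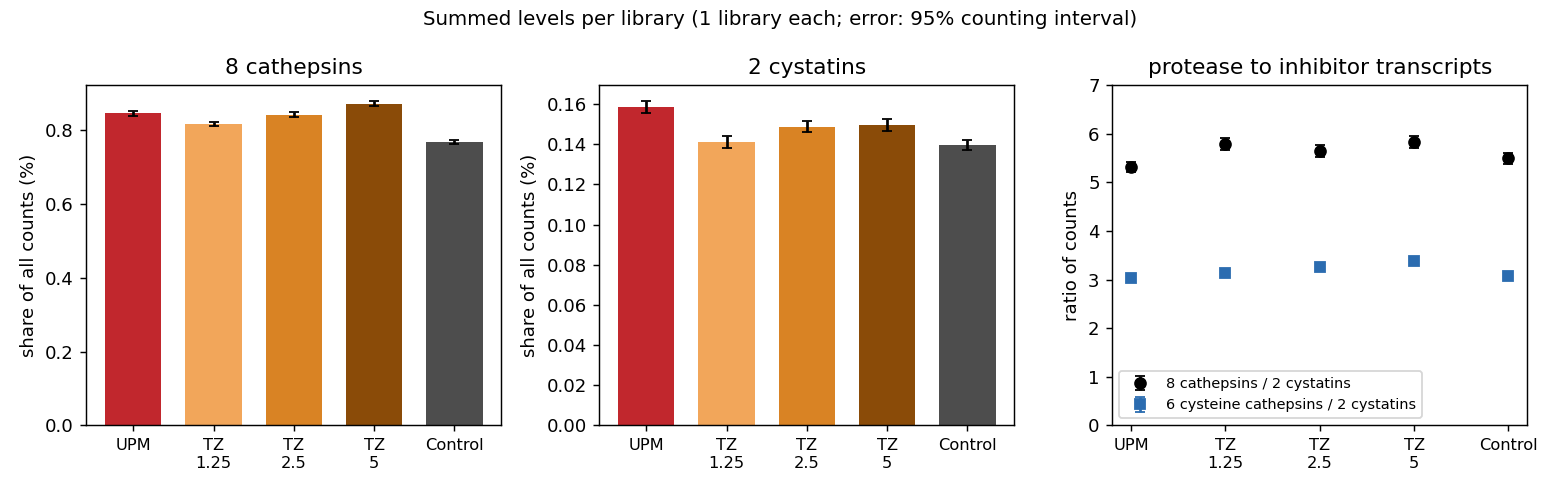
Share of all counts (y axis, percent) taken by the 8 cathepsins (left) and the 2 cystatins (middle), and the ratio of cathepsin to cystatin counts (right), per library with 95% counting intervals. The cathepsin share was 0.870% in TZ 5 and 0.767% in Control, and the ratio was lowest in UPM at 5.32.

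Related genes were counted from lists. For scale, the 1.5-fold rule called 2.22% to 6.57% of all genes, by comparison, and the dose trend called 5.44%. Ctsk, a collagen-cutting cathepsin that is no member of the set, was the most abundant cathepsin transcript, with 6675 CPM in UPM, 6299 CPM in TZ 1.25, 6128 CPM in TZ 2.5, 6219 CPM in TZ 5 and 6075 CPM in Control. UPM was its high library, at 1.10-fold of Control (1.08 to 1.11). Of 15 cathepsin names outside the set, Ctsk among them, 12 were at 0 in all libraries. Ctsf had 12.3 to 16.5 CPM and Ctso 15 to 55 counts. Of 19 other cystatin and stefin names, 14 were at 0 everywhere and none reached a mean of 10 CPM; the highest was Cst7 at 11 to 24 counts, followed by Csta2.

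Of 11 genes for cathepsin activation and partners, 10 were fitted and 1 rose with TZ dose, beside 2.95% of all genes. It was Glb1, the β-galactosidase that Ctsa shields, with 42.75 CPM in UPM, 47.72 CPM in TZ 1.25, 54.32 CPM in TZ 2.5, 66.66 CPM in TZ 5 and 46.82 CPM in Control (log2 0.62, SE 0.16, edgeR adjusted p = 0.0126). Galns, a lysosomal sulfatase with only 75 to 141 counts per library, was 2.02-fold in TZ 2.5 (1.52 to 2.71) and 1.76-fold in TZ 5 (1.31 to 2.37) relative to UPM. It was 0.610-fold in UPM (0.453 to 0.817) and 0.630-fold in TZ 1.25 (0.466 to 0.846) relative to Control, with no dose call. The most abundant, Grn and Psap, had 1803 and 1510 CPM in UPM, and 2231 and 1227 CPM in Control.

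Of 14 sorting genes, 13 were fitted and 1 rose with dose, beside 2.95% of all genes. It was Nagpa, which uncovers the mannose 6-phosphate tag, with 71.72 CPM in UPM, 67.99 CPM in TZ 1.25, 88.73 CPM in TZ 2.5, 107.4 CPM in TZ 5 and 88.89 CPM in Control (log2 0.64, SE 0.14, edgeR adjusted p = 0.00275). Its low pair of libraries, UPM and TZ 1.25, was the same as that of Ctsc. Sort1, a sorting receptor with only 60 to 103 counts per library, was 1.74-fold in TZ 1.25 and 1.87-fold in TZ 5 relative to Control. Gnptg, with 49 to 86 counts, was 1.54-fold in TZ 5 relative to Control. Lamp1 and Lrp1 were the most abundant, at 1098 and 361.9 CPM in UPM, and 928 and 353.9 CPM in Control.

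Of 15 genes of lysosomal transcription and signalling, all were fitted and 1 fell with dose, beside 2.5% of all genes. It was Lamtor1, an anchor of the mTORC1 kinase on lysosomes, with 258.4 CPM in UPM, 247.3 CPM in TZ 1.25, 194.3 CPM in TZ 2.5, 182.3 CPM in TZ 5 and 221.3 CPM in Control (log2 −0.56, SE 0.12, edgeR adjusted p = 0.00168). Tfeb, the factor that binds CACGTG in lysosomal promoters, had only 56 to 103 counts per library. It was 1.58-fold in UPM relative to Control (1.15 to 2.19) and 0.603-fold in TZ 5 relative to UPM (0.428 to 0.843), without a dose call. Lamtor2 (105 to 153 counts per library) was 1.61-fold in TZ 2.5 relative to UPM. Mtor (81 to 117 counts) was 1.504-fold in TZ 1.25 relative to Control, and Mitf, a relative of Tfeb, had 153 to 182 CPM. Of 9 serpins, 5 were fitted and none (0 of 5) had a dose call, beside 5.44% of all genes. Serpinb6a had 247 to 289 CPM and Serpinb6b 16.63 to 22.46 CPM. Serpina3g (41 to 93 counts per library) was 0.656-fold in TZ 5 relative to UPM, and Serpinb9 (84 to 129 counts) was 1.67-fold in TZ 2.5 relative to Control. The UPM term called 0 genes in each of these lists, beside 0.113% of all genes.

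For the genes with the widest range, the 3 nearest profiles among 5367 genes with a mean of at least 30 CPM were listed by the root mean square difference of centred log2 levels over 5 libraries. For Ctsc they were U2surp (0.0157), Marcks (0.0162) and Nipsnap2 (0.0205). U2surp had 239.9 CPM in UPM, 233.3 CPM in TZ 1.25, 294.0 CPM in TZ 2.5, 323.4 CPM in TZ 5 and 258.9 CPM in Control, the same order of libraries as Ctsc. For Ctsh they were Macir (0.034), Dnase1l1 (0.075) and Syap1 (0.085). With 5 libraries and this many genes, close profiles are found by search and describe likeness only.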

How the data were processed

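RNA of 5 BV-2 libraries, 1 per group, was sequenced from the 3′ end (QuantSeq, single-end, NextSeq 550), per the labels' protocols. The deposited values are raw read counts per gene symbol, 1 file per library. STAR, edgeR and build GRCm39 appear, without version, in the submitters' processing notes, with the counter, annotation and strand handling not given in the sources used here. Replicates were lacking, so folds between libraries carry counting error only.

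Groups were taken from the labels. CPM were scaled by TMM factors (0.991 to 1.01) for folds, with 95% exact conditional binomial intervals (Clopper-Pearson). A gene was called at a fold of 1.5, or 1.2, with the interval excluding 1 and a mean of at least 10 CPM for the pair. The dose trend and UPM term were fitted with edgeR 4.0.16 (limma 3.58.1, R 4.3.3) after filterByExpr, with Benjamini-Hochberg adjusted p under 0.05 over 12381 genes. The common biological coefficient of variation was 0.0752. Other tools were DESeq2 1.42.0 and Python 3.11.15. Alternatives were other scalings, CPM minimums, thinned depth, DESeq2, no low-count filter, dose as rank, and each UPM-exposed library left out.

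All 10 genes were named. From each list of related genes, and the microglia markers, came the 2 most abundant members and any called at 1.5-fold or in the fit, and for the 2 members of widest range the 3 nearest profiles. The members and lists were chosen with earlier results of these data known. Sequences are RefSeq promoter windows on GRCm38.p6; overlaps of genes came from GENCODE M21 on GRCm38, a different build from that of the counts.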

Additional observations from a re-analysis of the deposited data

How the results depend on the processing

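No paired analysis was possible because each group is 1 library. No called result reversed direction under the alternatives run, but estimates near 0 that were not called did. With 1 UPM-exposed library left out, the dose estimate (log2 per µg/mL) ran from −0.0462 to 0.0654 for Cst3, −0.0254 to 0.0499 for Ctsb, −0.180 to 0.0587 for Ctsh, −0.0258 to 0.0172 for Ctsl and −0.0214 to 0.0289 for Ctss. The UPM estimate (log2) ran from −0.314 to 0.0353 for Cst3, −0.0430 to 0.148 for Ctsb, −0.332 to 0.0270 for Ctsh and −0.0661 to 0.0636 for Ctsz. With dose as rank, the dose estimate per step was −0.0022 for Cst3 and −0.011 for Ctsh, and the UPM estimate was −0.020 for Ctsz. Without a dose term the UPM estimate was 0.022 for Ctsc, beside −0.20 with it. The 1.5-fold counts stayed at 0 for all 7 comparisons. A fold limit of 2 could then only give 0 as well and is no check. Of counts of called genes, 86 stayed within 1.5 times of the value reported and 8 moved. The 86 include counts that could not change, those at a fold limit of 2 and those at a minimum of 1 CPM. At 1.2-fold, TZ 2.5 against UPM gave 2 genes by total counts and 0 at a minimum of 30 CPM, beside 1 as reported; TZ 2.5 against Control gave 3 and 0, beside 1. The dose trend held 1 gene with DESeq2's Wald test, and 0 to 2 genes with 1 UPM-exposed library left out, beside 2 as reported. No fold changed by more than 1.009-fold with DESeq2 size factors, 1.024-fold with total counts, or 1.03-fold with thinned libraries. Without mt-Rnr1 and mt-Rnr2, the share of counts in the 10 genes was 1.099% in UPM, 1.047% in TZ 1.25, 1.064% in TZ 2.5, 1.097% in TZ 5 and 0.985% in Control. With them it was 1.003%, 0.957%, 0.989%, 1.02% and 0.907%. UPM thus lay below TZ 5 with them. Without them UPM (1.092% to 1.107%) and TZ 5 (1.089% to 1.105%) overlapped and could not be ordered. The cathepsin to cystatin ratio was also taken with only the cysteine cathepsins of the set. It was 3.039 in UPM, 3.131 in TZ 1.25, 3.265 in TZ 2.5, 3.382 in TZ 5 and 3.071 in Control. Depth limited Ctsh most, with 161 to 245 counts per library. With 1 library per group, culture-to-culture variation was not measured, and the p-values of the dose fit assume a straight line over dose.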
